A study of Mus musculus with 18 samples.

Results

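The hypoxia-inducible factor (HIF) targets that are not glycolytic enzymes were followed here as 10 genes: Egln1, Kdm3a, Bnip3, Bnip3l, Pdk1, Pfkfb3, Adm, Igfbp3, Mif and Ndrg1. They were found as the probes whose only annotated gene symbol is one of these names, which gave 15 of the 16128 probes on the array. Of these probes 12 had enough values to be tested, and they covered all 10 genes among the 5751 features tested (4109 named genes, and probes without a single symbol). The measurements came from kidneys of CD1 mice, an outbred stock, on 18 cDNA arrays. Animals were placed at postnatal day 2 in constant hypoxia (11% oxygen), in intermittent hypoxia (oxygen alternating between 11% and 21% every 4 min) or in normoxia (labelled NAC), and were studied after 1, 2 or 4 weeks. Each of the 9 combinations had 2 arrays, called A and B, and each array paired the kidney cDNA of an animal labelled male (Cy5) with that of an animal labelled female (Cy3), both kept in the same condition.

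HIF is a transcription factor whose alpha subunit is hydroxylated and destroyed while oxygen is plentiful. When oxygen falls the subunit persists, pairs with its beta partner and binds short elements with the core ACGTG or GCGTG, the hypoxia response element, near its target genes. Beyond glycolysis its targets include its own oxygen sensor, a histone demethylase, mitophagy receptors, switches of fuel use, and secreted factors. In the kidney HIF is known above all for its control of erythropoietin.

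The value of a probe on an array was the log2 ratio between the animals of that array, so it is not an expression level. A response to hypoxia that was equal in both animals leaves such a ratio where it was. The labels do not say which animal stands on top of the ratio, so positive and negative are the signs as deposited and carry no statement about sex. Every ratio below is relative to the median feature of its array. In whole kidney, moreover, fewer cells of a type and less RNA per cell cannot be told apart.

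The constant hypoxia arrays were deposited on another footing than the rest, with values for 81.8% to 88.8% of the probes. Their medians were -1.17 to -0.97 at 1 and 4 weeks, but -0.15 and -0.23 at 2 weeks. The medians were -0.03 to 0.03 with 42.9% to 65.7% of the probes in intermittent hypoxia, and -0.07 to 0.09 with 41.0% to 67.9% in normoxia. Constant hypoxia and this difference of footing cannot be told apart, and within constant hypoxia the shift of the median differed by duration. Array B of intermittent hypoxia at 2 weeks stood apart in its median absolute ratio, 0.44 over all features against 0.15 to 0.32 on the other 17 arrays. Array A of constant hypoxia at 4 weeks had a long low tail. Its 5th percentile over all features was -2.38, against -1.07 to -0.38 on the other 17 arrays. The labels contradict themselves on 2 arrays. The animal labelled female on array A of intermittent hypoxia at 2 weeks carries the name of a 1-week animal, and for array A of constant hypoxia at 4 weeks 1 channel is described as exposed for 2 weeks. The proximal tubule markers Lrp2 and Miox were measured (2 of 8 listed markers tested), but ratios give no level by which to check the tissue.

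What the targets share in sequence is shown for the genes on which the results turn, Pdk1, Igfbp3 and Bnip3. Each stretch is a RefSeq promoter window of GRCm38.p6, 250 bases before to 50 bases from the annotated start on, written 5' to 3' on the strand of the gene. Capitals mark the core ACGTG or GCGTG on either strand, so that CACGT and CACGC are the same cores read on the other strand and CACGTG holds ACGTG on both.
Pdk1 (chr2:71872974-71873273, plus strand): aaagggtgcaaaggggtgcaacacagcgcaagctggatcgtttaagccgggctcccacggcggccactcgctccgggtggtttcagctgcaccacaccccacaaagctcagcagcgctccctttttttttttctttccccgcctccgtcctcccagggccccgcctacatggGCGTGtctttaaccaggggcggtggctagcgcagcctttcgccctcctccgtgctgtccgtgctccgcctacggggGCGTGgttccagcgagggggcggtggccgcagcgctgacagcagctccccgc
Igfbp3 (chr11:7213874-7214173, minus strand): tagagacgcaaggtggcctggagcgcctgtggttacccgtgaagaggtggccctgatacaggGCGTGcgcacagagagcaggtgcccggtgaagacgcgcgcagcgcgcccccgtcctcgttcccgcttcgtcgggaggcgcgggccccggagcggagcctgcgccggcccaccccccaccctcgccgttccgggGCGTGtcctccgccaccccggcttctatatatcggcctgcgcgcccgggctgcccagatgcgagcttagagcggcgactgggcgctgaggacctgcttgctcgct
Bnip3 (chr7:138909457-138909756, minus strand): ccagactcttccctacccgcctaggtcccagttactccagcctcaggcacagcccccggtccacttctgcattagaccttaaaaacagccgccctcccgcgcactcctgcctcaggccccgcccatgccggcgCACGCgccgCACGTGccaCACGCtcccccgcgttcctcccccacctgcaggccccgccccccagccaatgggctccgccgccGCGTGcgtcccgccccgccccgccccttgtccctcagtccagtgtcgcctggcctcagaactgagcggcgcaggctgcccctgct
The printed Pdk1 and Igfbp3 windows each held GCGTG 2 times, while a second Pdk1 window (chr2:71874654-71874953) held neither core, and the Bnip3 window held GCGTG 3 times and ACGTG 2 times, both within the palindrome CACGTG. Of the 10 genes, 8 matched a RefSeq window, and Bnip3l and Ndrg1 are named only. These 8 genes had 12 windows, of which 5 held ACGTG, 7 held GCGTG and 9 held either core. Among all 32851 windows ACGTG was found in 19.6%, GCGTG in 32.4% and either in 43.8%. All 8 genes had a core in at least 1 window, as did 46.7% of the 27025 genes in the RefSeq table, with 1.5 windows a gene among the members and 1.22 over all genes. This describes letters and not a bound site.

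No member passed in either overall comparison with normoxia. Between constant hypoxia and normoxia, averaged over the 3 durations, 7 of the 10 ratios were higher in constant hypoxia, with a median difference of 0.09 on the log2 scale, against a median of -0.04 over all features, of which 43.1% were positive. None of the 10 passed in limma (0 of 10 at an adjusted p under 0.05, and 0 of 10 at an unadjusted p under 0.05), while 0% of all features passed and 7.53% had an unadjusted p under 0.05. Between intermittent hypoxia and normoxia 6 of 10 ratios were higher in intermittent hypoxia, with a median of 0.07 against 0.01 over all features, of which 53.0% were positive. In that comparison 0 of 10 passed in limma and 1 of 10, Pdk1, had an unadjusted p under 0.05, while 0% of all features passed and 4.12% were under 0.05 unadjusted. Both comparisons rest on the same normoxia arrays. The split by sign was widest in constant hypoxia at 2 weeks, where 8 of 10 members were above normoxia with a median difference of 0.17, against -0.03 over all features, of which 46.5% were positive. The ratio itself was positive for 8 of 10 members in constant hypoxia, with a median of 0.18 against -0.01 over all features, of which 49.3% were positive. It was positive for 7 of 10 in intermittent hypoxia (48.5% of all features) and for 5 of 10 in normoxia (49.3%). These counts are descriptions, with no test of the list. Centring decides the overall comparison of constant hypoxia with normoxia: on the values as deposited the median of all features moved to -0.81, and 8 members passed, all with a lower ratio in constant hypoxia.

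**Figure D1:**
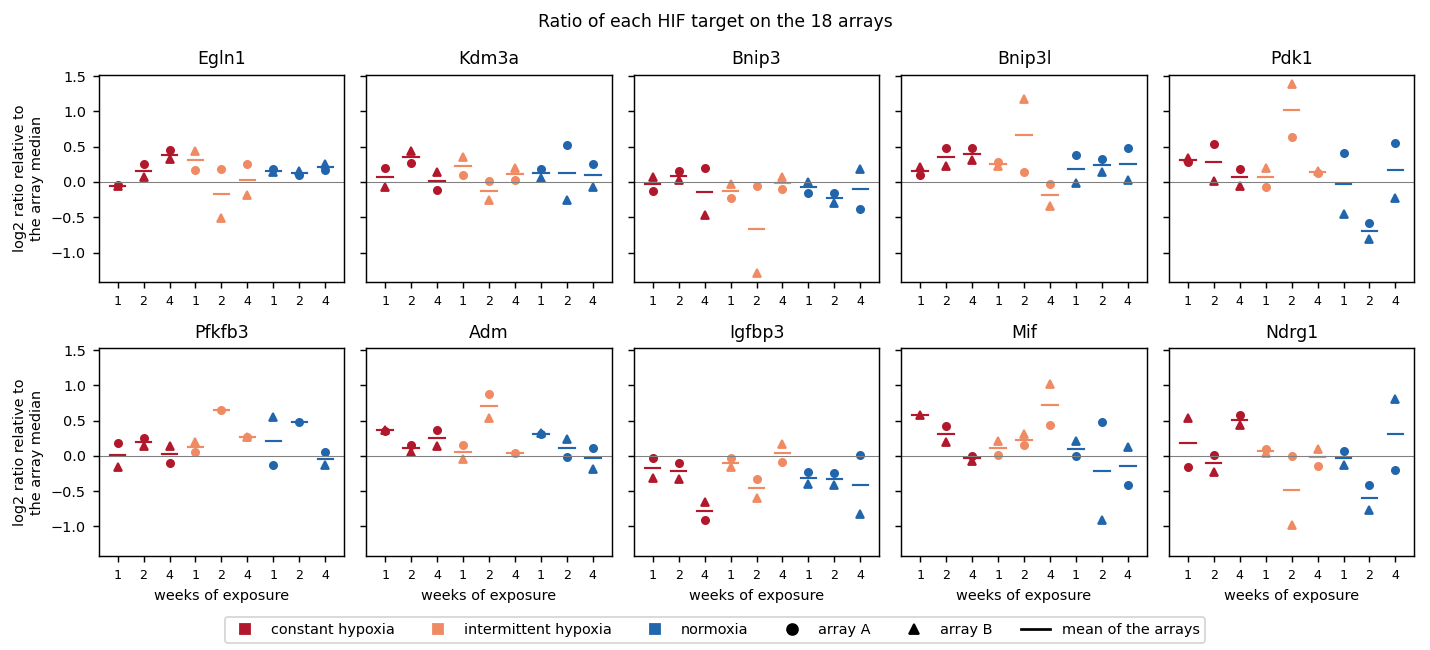
Each panel plots 1 HIF target, with the log2 ratio relative to the array median on the vertical axis and weeks of exposure within constant hypoxia, intermittent hypoxia and normoxia on the horizontal axis. Circles and triangles are arrays A and B and lines are their means; Pdk1 at 2 weeks separates intermittent hypoxia (0.64 and 1.39) from normoxia (-0.59 and -0.81), while Igfbp3 lies below 0 on 16 of 18 arrays.

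The prolyl hydroxylase Egln1, the oxygen sensor that marks HIF alpha for destruction, had centred ratios of -0.06 to 0.45 in constant hypoxia (median 0.16), -0.51 to 0.44 in intermittent hypoxia (median 0.18) and 0.10 to 0.26 in normoxia (median 0.16). Its ratio was positive on all 6 normoxia arrays, and the groups overlapped over the 3 durations together. In constant hypoxia it was -0.05 and -0.06 at 1 week, below the 0.18 and 0.14 of normoxia, and 0.45 and 0.33 at 4 weeks, above the 0.17 and 0.26 of normoxia. The change from 1 to 4 weeks in constant hypoxia, 0.44 ± 0.24 (SE, n = 2 arrays at each time), did not pass in limma (adjusted p = 0.581).

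These Egln1 values average 2 probes that went opposite ways. Over the 15 arrays that measured both, probes 7501 and 9700 had the same sign on 7, with a Pearson r of -0.68 over arrays, and on normoxia 1 week A they read -0.81 and 1.17. Probe 7501 averaged -0.12 in normoxia, where probe 9700 averaged 0.45. The difference of constant hypoxia from normoxia was 0.19 ± 0.17 for probe 7501 and -0.21 ± 0.18 for probe 9700 (SE), while the gene's value, -0.00256, lies between them. At 1 week this difference was 0.39 ± 0.29 for probe 7501 and -0.83 ± 0.31 for probe 9700. At 4 weeks it was 0.0017 ± 0.29 and 0.34 ± 0.31 (SE). Probe 9700 had no value on the B arrays of intermittent hypoxia, where the gene's value is that of probe 7501 alone.

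Kdm3a, a histone H3 lysine 9 demethylase, had small ratios in every condition. They spanned -0.12 to 0.44 in constant hypoxia (median 0.17), -0.26 to 0.35 in intermittent hypoxia (median 0.06) and -0.26 to 0.52 in normoxia (median 0.12). Each hypoxia regime overlapped normoxia at every duration. Its difference from normoxia was 0.03 ± 0.15 in constant hypoxia and -0.05 ± 0.15 in intermittent hypoxia (SE). Both turned sign on the normoxia 2 weeks arrays, to 0.16 and 0.08 without array A and to -0.10 and -0.18 without array B. Its other probe, 2782, was measured on 11 arrays, too few to be tested, and spanned -0.27 to 0.21.

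Bnip3 and Bnip3l, related mitochondrial outer membrane proteins that recruit the autophagy machinery to mitochondria, lay furthest apart on 1 array. Bnip3 had ratios of -0.47 to 0.20 in constant hypoxia (median 0.05), -1.29 to 0.07 in intermittent hypoxia (median -0.07) and -0.38 to 0.18 in normoxia (median -0.16). Its lowest value lay on intermittent hypoxia 2 weeks B, while array A of that group read -0.05. Bnip3l had ratios of 0.09 to 0.48 in constant hypoxia (median 0.27), -0.34 to 1.18 in intermittent hypoxia (median 0.18) and -0.02 to 0.49 in normoxia (median 0.24). Its highest value lay on that same array, and it was positive on 15 of 18 arrays. The genes had opposite signs elsewhere too, as on constant hypoxia 4 weeks B (-0.47 for Bnip3 and 0.32 for Bnip3l) and normoxia 4 weeks A (-0.38 and 0.49).

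Over the 18 arrays the ratios of Bnip3 and Bnip3l had a Pearson r of -0.70, and of -0.22 without intermittent hypoxia 2 weeks B. For Bnip3 the difference from normoxia was 0.11 ± 0.20 in constant hypoxia and -0.13 ± 0.20 in intermittent hypoxia, where it was 0.07 without that array. For Bnip3l it was 0.08 ± 0.17 in constant hypoxia and 0.02 ± 0.17 in intermittent hypoxia, where it was -0.15 without that array (SE). For both genes the difference in intermittent hypoxia was smaller than its SE and changed sign without that 1 array, so neither had a clear direction. The 2 Bnip3l probes differed in range, from -0.67 to 1.88 for probe 1565 and from -0.13 to 0.48 for probe 7874, and had the same sign on 12 of 18 arrays. Their highest values, 1.88 and 0.48, both lay on intermittent hypoxia 2 weeks B. On that array the probes within 5 numbers had medians of 1.61 around probe 1565, -0.11 around probe 7874 and -1.01 around the Bnip3 probe.

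**Figure D2:**
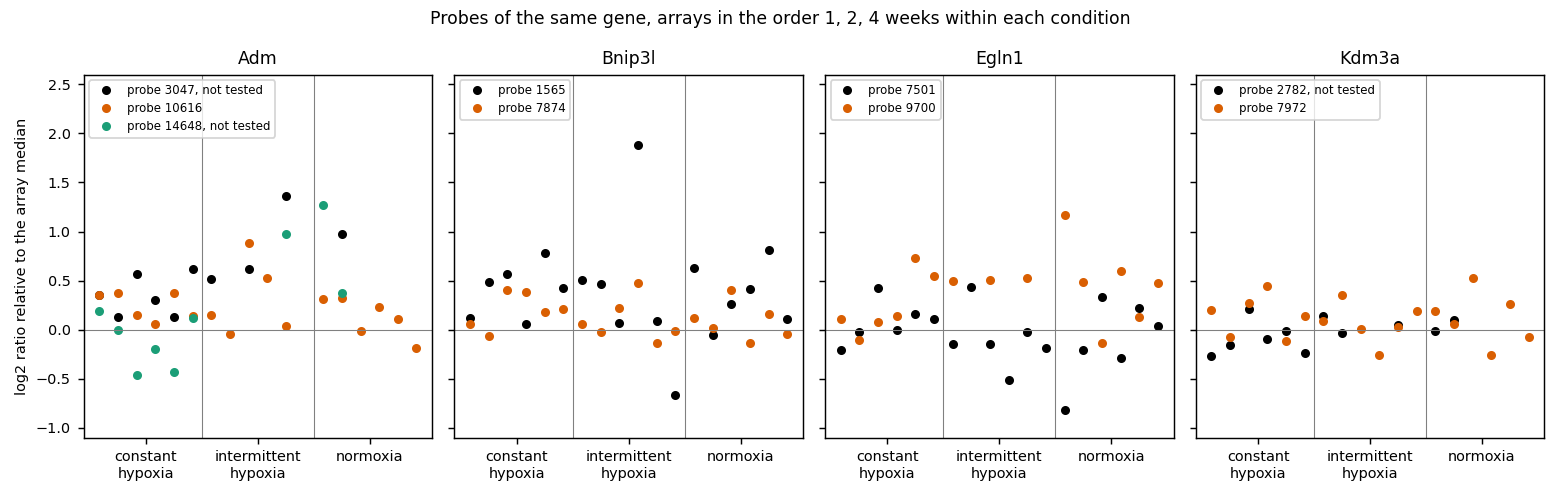
Log2 ratios relative to the array median (vertical axis) of each probe of Adm, Bnip3l, Egln1 and Kdm3a on the 18 arrays, in the order constant hypoxia, intermittent hypoxia, normoxia; colours are probes and missing points are missing values. The Egln1 probes have the same sign on 7 of 15 arrays, and the highest point, 1.88, is Bnip3l probe 1565 on intermittent hypoxia 2 weeks B.

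Pdk1, the kinase that switches off pyruvate dehydrogenase and so keeps pyruvate out of the mitochondrial citric acid cycle, had the largest difference among the 10 members in both overall comparisons with normoxia. At 1 week its ratio was 0.28 and 0.35 in constant hypoxia, -0.07 and 0.20 in intermittent hypoxia, and 0.41 and -0.46 in normoxia. At 2 weeks it was 0.54 and 0.02 in constant hypoxia, 0.64 and 1.39 in intermittent hypoxia, and -0.59 and -0.81 in normoxia. At 4 weeks it was 0.19 and -0.06 in constant hypoxia, 0.13 and 0.15 in intermittent hypoxia, and 0.56 and -0.23 in normoxia. Against normoxia the hypoxia groups separated at 2 weeks only, where both lay above it, and the 1-week and 4-week normoxia arrays disagreed in sign.

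At 2 weeks the Pdk1 ratio was higher by 1.71 ± 0.34 in intermittent hypoxia than in normoxia, and by 0.98 ± 0.34 in constant hypoxia than in normoxia (SE, n = 2 arrays a group). Neither passed in limma, with adjusted p values of 0.0782 and 0.334. In intermittent hypoxia at 2 weeks 0 of 10 members passed and 2 of 10, Pdk1 and Adm, had an unadjusted p under 0.05, while 0.0869% of all features passed and 12.4% were under 0.05 unadjusted. In constant hypoxia at 2 weeks 0 of 10 passed and 1 of 10, Pdk1, had an unadjusted p under 0.05, while 0.0174% of all features passed and 10.2% were under 0.05 unadjusted. Over the 3 durations together the Pdk1 difference from normoxia was 0.41 ± 0.19 in constant hypoxia (adjusted p = 0.647) and 0.59 ± 0.19 in intermittent hypoxia (adjusted p = 0.995). Whether the difference at 2 weeks exceeds that at the other durations was not tested.

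The Pdk1 difference at 2 weeks in intermittent hypoxia lay close to the threshold. It was 1.34 without array B of that group (adjusted p = 0.568) and 2.08 without array A, the array whose labels disagree (adjusted p = 0.00781, with array B as the only array). It was 1.32 with arrays scaled to the same spread (adjusted p = 0.591). It passed without constant hypoxia 4 weeks A or B (adjusted p = 0.0458 in either case), which bear on the spread only. Among cell type markers at 2 weeks, the 4 of 10 immune markers tested averaged -0.74 in intermittent hypoxia and 0.15 in normoxia. The 1 of 5 fat markers tested, Lpl, averaged 0.63 in intermittent hypoxia and -0.24 in normoxia. The means of the other lists with tested markers differed less. In the same order they averaged -0.10 and -0.02 (erythroid), 0.23 and 0.28 (endothelium) and -0.22 and -0.37 (proximal tubule). Loop and distal tubule averaged 0.33 and 0.31, and podocyte 0.01 and -0.02. Arrays A and B of intermittent hypoxia at 2 weeks differed, with -0.32 and 0.34 for podocyte and -0.46 and 0.02 for proximal tubule. Lpl was 1.06 on that array B. The part of these markers in the Pdk1 difference was not tested.

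Pfkfb3, which makes fructose 2,6-bisphosphate, the activator of phosphofructokinase, had ratios of -0.16 to 0.26 in constant hypoxia (median 0.14), 0.06 to 0.64 in intermittent hypoxia (median 0.26) and -0.13 to 0.56 in normoxia (median 0.05). It had no value on the B arrays of intermittent hypoxia and normoxia at 2 weeks. All 5 intermittent hypoxia values were positive, and 3 of 5 were in normoxia. Its difference from normoxia was -0.14 ± 0.16 in constant hypoxia and 0.13 ± 0.17 in intermittent hypoxia (SE), a difference between the regimes of 0.27 ± 0.16 that did not pass in limma (adjusted p = 0.501). Between intermittent and constant hypoxia 0 of 10 members passed, and 0 of 10 had an unadjusted p under 0.05, while 0.0348% of all features passed and 11.4% were under 0.05 unadjusted.

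**Figure D3:**
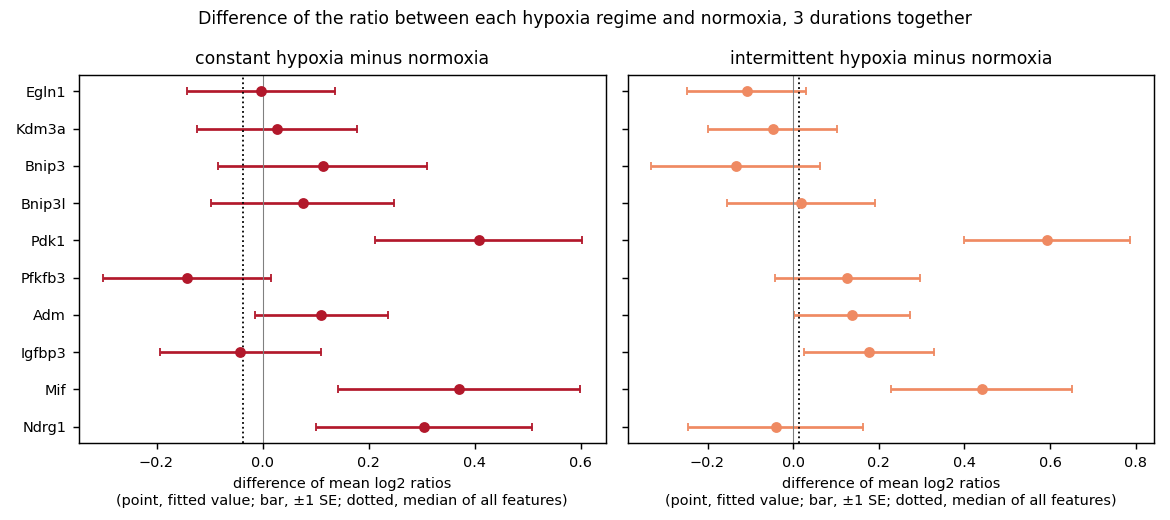
Fitted difference of the log2 ratio (horizontal axis, point with ±1 SE) for each member, constant hypoxia minus normoxia on the left and intermittent hypoxia minus normoxia on the right; the dotted line is the median of all 5751 features. Pdk1 stands highest in both panels, at 0.41 and 0.59, and Mif follows at 0.37 and 0.44.

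Among the secreted factors, Adm encodes adrenomedullin, a vasodilator peptide. Its tested probe gave 0.06 to 0.37 in constant hypoxia (median 0.25), -0.04 to 0.88 in intermittent hypoxia (median 0.15) and -0.18 to 0.32 in normoxia (median 0.17), with no value on intermittent hypoxia 4 weeks B. The ratio was positive on all 6 constant hypoxia arrays and on 14 of 17 arrays in all. At 2 weeks it was 0.88 and 0.53 in intermittent hypoxia and -0.01 and 0.24 in normoxia, a difference of 0.59 ± 0.22 (SE) that did not pass in limma (adjusted p = 0.264). At 1 week the order was turned, with 0.15 and -0.04 in intermittent hypoxia and 0.31 and 0.32 in normoxia.

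Adm had 3 probes, and the tested one did not track the others. Probe 3047, on 10 arrays, spanned 0.13 to 1.36 and had the sign of the tested probe on all 10, yet their r over those arrays was -0.21. Probe 14648, on 9 arrays, averaged -0.13 on the 6 constant hypoxia arrays and 0.82 on 2 normoxia arrays, and its r with the tested probe was -0.05. The 2 untested probes had an r of 0.81 with each other over 8 arrays. Neither had values on enough arrays to be tested.

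Igfbp3, a carrier of insulin-like growth factors in plasma and tissue fluid, was negative on 16 of its 18 arrays, a constancy of sign shared by 16.7% of the 2911 features measured on every array. In constant hypoxia it was -0.03 and -0.31 at 1 week, -0.10 and -0.32 at 2 weeks, and -0.91 and -0.66 at 4 weeks. In intermittent hypoxia it was -0.04 and -0.15 at 1 week, -0.33 and -0.59 at 2 weeks, and -0.08 and 0.17 at 4 weeks. In normoxia it was -0.23 and -0.39 at 1 week, -0.24 and -0.41 at 2 weeks, and 0.01 and -0.83 at 4 weeks. The lowest values lay in constant hypoxia at 4 weeks and on normoxia 4 weeks B, so the regimes overlapped.

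Igfbp3 was the only member whose mean ratio in a condition passed the test against the array median. The mean was -0.39 ± 0.11 in constant hypoxia (adjusted p = 0.0257), -0.17 ± 0.11 in intermittent hypoxia (adjusted p = 0.347) and -0.35 ± 0.11 in normoxia (SE, 6 arrays each, adjusted p = 0.0861, all by limma). In constant hypoxia 1 of 10 members passed, a smaller share than the 18.3% of all features that did, and 3 of 10 members and 35.7% of all features had an unadjusted p under 0.05. In intermittent hypoxia 0 of 10 passed and 4 of 10 had an unadjusted p under 0.05, while 5.79% of all features passed and 24.6% were under 0.05 unadjusted. In normoxia 0 of 10 passed and 1 of 10 had an unadjusted p under 0.05, while 3.53% of all features passed and 21.7% were under 0.05 unadjusted. The share of members called was thus no higher than the share of all features in any condition.

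The Igfbp3 call was not firm. It was lost on leaving out any of constant hypoxia 1 week A, 1 week B, 2 weeks A, 2 weeks B or 4 weeks A (means of -0.44 to -0.34, adjusted p of 0.05 to 0.128). The difference from normoxia was -0.04 ± 0.15 in constant hypoxia and 0.18 ± 0.15 in intermittent hypoxia (SE), and neither passed. The first was 0.10 without normoxia 4 weeks A and -0.18 without normoxia 4 weeks B. From 1 to 4 weeks of constant hypoxia the ratio differed by -0.61 ± 0.26 (SE), which did not pass (adjusted p = 0.446). Constant hypoxia 4 weeks A, where Igfbp3 was lowest, also had the lowest mean of the 3 of 12 erythroid markers tested, -2.10, while those means reached 0.02 in constant hypoxia, and spanned -0.87 to 0.15 in intermittent hypoxia and -0.43 to 0.15 in normoxia. On constant hypoxia 4 weeks A the 5th percentile of all features was itself -2.38. The part of the erythroid markers and of this low tail was not tested.

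Mif, a cytokine that also acts as a tautomerase, had ratios of -0.07 to 0.58 in constant hypoxia (median 0.20, 5 arrays), 0.01 to 1.02 in intermittent hypoxia (median 0.26) and -0.91 to 0.48 in normoxia (median 0.06). It had no value on constant hypoxia 1 week A. All 6 intermittent hypoxia values were positive, and 3 of 6 were in normoxia. At 4 weeks Mif was 0.44 and 1.02 in intermittent hypoxia and -0.41 and 0.12 in normoxia, a difference of 0.87 ± 0.37 (SE) that did not pass in limma (adjusted p = 0.559). At that time 0 of 10 members passed and 1 of 10, Mif, had an unadjusted p under 0.05, while 0% of all features passed and 8.73% were under 0.05 unadjusted. Over all durations the difference from normoxia was 0.37 ± 0.23 in constant hypoxia (adjusted p = 0.666) and 0.44 ± 0.21 in intermittent hypoxia (adjusted p = 0.995). These sizes rested on the normoxia 2 weeks arrays, with 0.60 and 0.67 without array A and 0.14 and 0.21 without array B.

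Ndrg1, a cytoplasmic protein of the N-myc downstream regulated family that is widely used as a marker of hypoxia, had the widest spread of the 10 members within constant hypoxia. It had ratios of -0.22 to 0.59 in constant hypoxia (median 0.23), -0.97 to 0.10 in intermittent hypoxia (median 0.02) and -0.77 to 0.81 in normoxia (median -0.16). Its sign was split evenly, positive on 9 of 18 arrays. The SD over the 6 arrays was 0.36 in constant hypoxia, 0.42 in intermittent hypoxia and 0.53 in normoxia. Its difference from normoxia was 0.30 ± 0.20 in constant hypoxia and -0.04 ± 0.20 in intermittent hypoxia (SE). These were 0.14 and -0.21 without normoxia 4 weeks A, and 0.47 and 0.13 without normoxia 4 weeks B.

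Within single durations the 2 arrays of hypoxia lay wholly apart from the 2 of normoxia for few members. In constant hypoxia this held at 1 week for 2 of 9 members (Adm above, Egln1 below, against 30.6% of all features) and at 2 weeks for 3 of 9 (Bnip3, Ndrg1 and Pdk1 above, against 42.7%). At 4 weeks it held for 2 of 10 (Adm and Egln1 above, against 28.8%). In intermittent hypoxia it held at 1 week for 2 of 10 (Igfbp3 above, Adm below, against 34.9%) and at 2 weeks for 2 of 9 (Adm and Pdk1 above, against 32.5%). At 4 weeks it held for 3 of 9 (Mif and Pfkfb3 above, Bnip3l below, against 48.5%). No count of members exceeded the share of all features, and no member was apart in the same direction at all 3 durations of a regime. The Egln1 values average 2 probes, whose differences at 1 week of constant hypoxia had opposite signs.

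Every remaining comparison also passed 0 of 10 members in limma. At 1 week this held for constant hypoxia (0% of all features passed) and intermittent hypoxia (0%) against normoxia, and at 4 weeks for constant hypoxia against normoxia (0.0348%), each with 0 of 10 at an unadjusted p under 0.05 (2.47%, 2.90% and 6.90% of all features). From 1 to 4 weeks 0 of 10 passed in constant hypoxia (0%), intermittent hypoxia (0%) and normoxia (0%), with Igfbp3 in constant hypoxia as the only member at an unadjusted p under 0.05 (10.2%, 2.66% and 8.54% of all features). The change from 1 to 4 weeks differed from that in normoxia for 0 of 10 members in constant hypoxia (0%) and in intermittent hypoxia (0%), with 0 of 10 at an unadjusted p under 0.05 in either (3.48% and 8.35% of all features).

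The spread of the members differed by condition. The median SD over the 6 arrays was 0.22 for the members and 0.25 for all features in constant hypoxia, 0.37 and 0.28 in intermittent hypoxia, and 0.28 and 0.31 in normoxia. In intermittent hypoxia 7 of 10 members lay above the median SD of all features, and the widest was Pdk1, at 0.54. On intermittent hypoxia 2 weeks B the median absolute ratio was 0.59 for the members and 0.44 for all features.

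Correlations between members over arrays had both signs. Of the 45 pairs 21 had a positive Pearson r, with a median of -0.07, and of 0.02 without intermittent hypoxia 2 weeks B. The pair with the highest r, Bnip3 and Ndrg1, had 0.65, and 0.43 without that array. All these values share arrays and animals and are descriptions.

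Many member probes resembled the probes with neighbouring numbers on the array. Over all tested probes the median Pearson r over arrays was 0.59 for probes 1 number apart and 0.04 at 1000 apart. The decline was not steady, with 0.39 at 10 apart, 0.45 at 50 apart and 0.32 at 100 apart. Against the median of the probes within 5 numbers on either side, the r of the member probes was 0.94 for Bnip3l probe 1565, 0.87 for Bnip3, 0.81 for Pdk1, 0.79 and 0.78 for the Egln1 probes, 0.77 for Kdm3a and 0.70 for Adm. It was 0.52 for Igfbp3, 0.43 for Pfkfb3, 0.38 for Mif, 0.32 for Ndrg1 and 0.06 for Bnip3l probe 7874. Without intermittent hypoxia 2 weeks B the largest changes were to 0.58 for Bnip3, 0.31 for Bnip3l probe 7874 and 0.69 for Pdk1. The labels do not say whether probe numbers follow position on the slide.

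**Figure D4:**
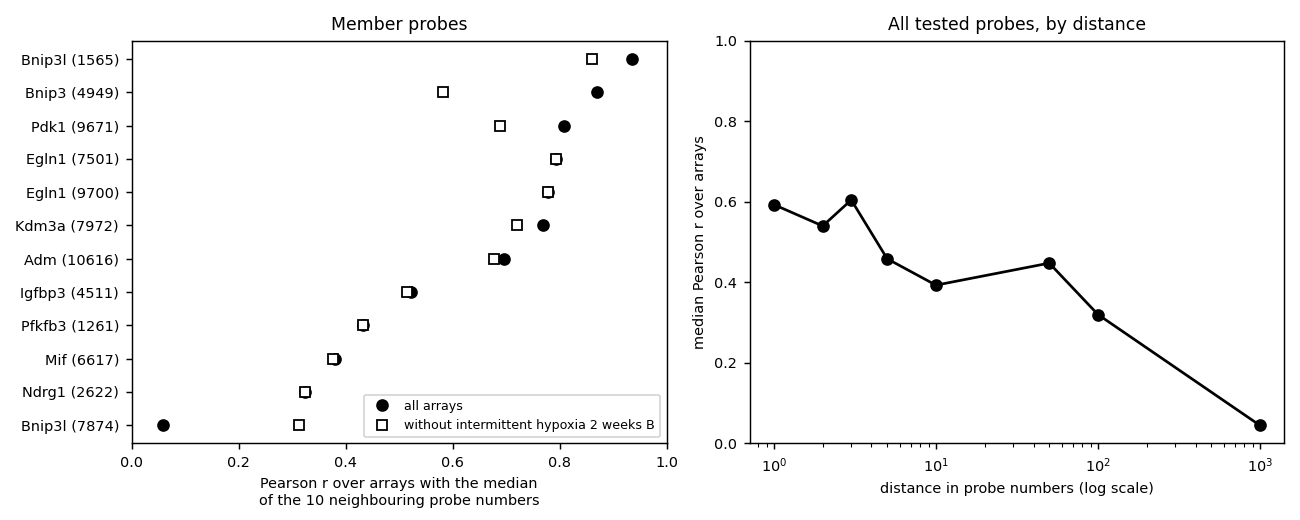
Left, Pearson r over arrays (horizontal axis) between each member probe and the median of its neighbouring probe numbers, with all arrays (filled) and without intermittent hypoxia 2 weeks B (open). Right, median r of all pairs of tested probes against their distance in probe numbers on a log scale. It is 0.59 at 1 apart, 0.39 at 10 apart, 0.45 at 50 apart and 0.04 at 1000 apart.

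Set beside their neighbours, the members differed from each other. At 2 weeks the neighbours of Pdk1 had medians of 0.13 and 0.76 in intermittent hypoxia and -0.15 and -0.13 in normoxia, on the same arrays where Pdk1 read 0.64 and 1.39 and -0.59 and -0.81. With the neighbours subtracted, a setting chosen after seeing the data, the Pdk1 difference at 2 weeks in intermittent hypoxia was 1.14 and passed in limma (adjusted p = 0.0241). The Adm difference in the same comparison was then 0.11 (adjusted p = 0.838), against 0.59 before. The Igfbp3 mean in constant hypoxia was then -0.02 (adjusted p = 0.985), against -0.39 before.

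**Figure D5:**
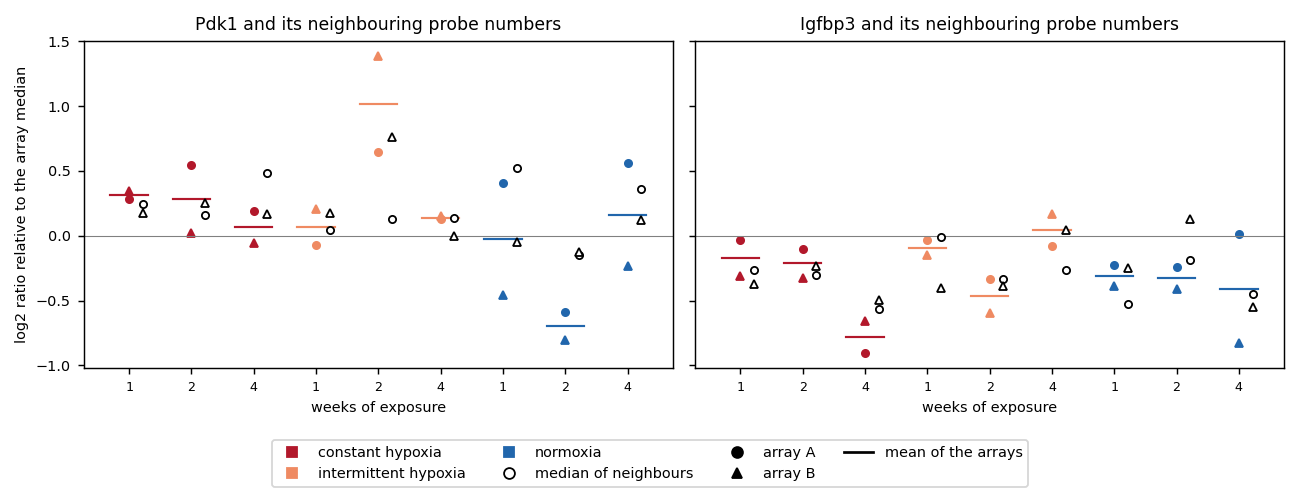
Log2 ratio relative to the array median (vertical axis) of Pdk1 and Igfbp3 (filled) and of the median of their neighbouring probe numbers (open) by weeks within each condition; circles are arrays A, triangles arrays B and lines the means of the filled points. Pdk1 goes beyond its neighbours at 2 weeks, above them on both intermittent hypoxia arrays and below them on both normoxia arrays, whereas Igfbp3 and its neighbours mostly lie below 0 together.

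The genes whose ratios were most like those of each member, taken as the 2 with the highest Pearson r over at least 15 arrays, included several of these neighbours. For Pdk1 they were Tns2 (r = 0.91) and Bbs4 (0.88), and for Igfbp3 Ppp3cb and Armcx1 (0.80 each). For Bnip3 they were Wdr36 (0.88) and Herc4 (0.87), and for Bnip3l Tex2 (0.91) and Cct5 (0.89). Without intermittent hypoxia 2 weeks B these values were 0.67 and 0.54 for Bnip3, and 0.81 and 0.84 for Bnip3l. Bbs4, Ppp3cb, Wdr36 and Herc4 lie within 3 probe numbers of their member. For Ndrg1 they were Mlf2 (0.92) and Fads1 (0.90), and for Mif Tkt (0.82) and Gatm (0.80). For Adm they were Slc38a1 (0.88) and Emc6 (0.80), and for Egln1 Ndufa13 (0.85) and Phf12 (0.84). For Kdm3a they were Copa and Arl2 (0.88 each), and for Pfkfb3 Pcdh7 (0.83) and Sp1 (0.81). Fads1 and Arl2 are near their members too, so that 5 of the 10 members have such a neighbour among their most similar genes.

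The partners and relatives of the members seldom passed either. Of 124 listed genes 69 had a probe and 42 were tested. In constant hypoxia against normoxia 0 of 42 passed and 23 of 42 were positive (median 0.03), where 43.1% of all features were positive. In intermittent hypoxia against normoxia 0 of 42 passed and 23 of 42 were positive (median 0.01), where 53.0% of all features were positive. Of the 6 tested partners of Egln1 the lowest in constant hypoxia minus normoxia was Vhl, the ubiquitin ligase subunit that recognises hydroxylated HIF alpha, at -0.70 ± 0.34 (SE, adjusted p = 0.647). Vhl rested on the constant hypoxia 4 weeks arrays, at -0.25 without array A, whose labels disagree, and -1.15 without array B. That array A is the one with the long low tail, a 5th percentile of -2.38 over all features. Hif1a, the oxygen-regulated subunit, was the highest of them in intermittent hypoxia minus normoxia at 0.22 ± 0.18 (adjusted p = 0.995). None of the 6 listed adrenomedullin receptor and relative genes had a probe.

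Of the 7 tested genes of the pyruvate dehydrogenase list 4 were positive in constant hypoxia minus normoxia, and the highest was Pdhb, a subunit of the complex that Pdk1 inhibits, at 0.42 ± 0.14 (SE, adjusted p = 0.647). Among the 11 tested HIF targets outside the 10 members, the highest in that comparison was the glycolytic enzyme Pgk1 at 0.32 ± 0.13 and the lowest the transferrin receptor Tfrc at -0.45 ± 0.27 (SE), and neither passed. Tfrc was -0.09 without constant hypoxia 4 weeks A, again the array with the long low tail, and -0.80 without array B. The mean ratio itself passed in constant hypoxia for 4 of the 42, all negative, a smaller share than the 18.3% of all features. These were Fbp2, a fructose bisphosphatase (-1.42, adjusted p = 0.00686), Vhl (-0.99, adjusted p = 0.0169), the apoptosis inhibitor Bcl2l1 (-0.46, adjusted p = 0.0306) and the carrier Igfbp5 (-0.43, adjusted p = 0.0323). None of these calls was firm. Leaving out 1 array gave -1.78 to -1.06 for Fbp2, which was lost without constant hypoxia 1 week B (adjusted p = 0.0598), and -1.43 to -0.54 for Vhl, which was lost without 1 week A, 1 week B or 2 weeks A (adjusted p up to 0.0846). Bcl2l1 (-0.54 to -0.39, adjusted p up to 0.148) and Igfbp5 (-0.48 to -0.37, adjusted p up to 0.119) were each lost without any of constant hypoxia 1 week A, 1 week B, 2 weeks A, 2 weeks B or 4 weeks A.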

How the data were processed

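Kidney RNA from 18 pairs of CD1 mice was hybridised to two-colour cDNA arrays, 60 ug total RNA per channel per the labels' protocols. Each deposited value is a log2 ratio of the channels; how the authors analysed images, corrected background, filtered, normalized and oriented it was left by the submitters to an earlier publication, and is otherwise not given in the sources used here. Of 1000 values drawn on each array, 23.9% to 78.1% became a ratio of whole numbers (denominator up to 600, relative tolerance 3e-09) when taken as powers of 2, and at most 0.6% with base e or 10. The arrays are the limit on precision, since no intensities are used.

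Groups came from the array titles. Probes were named from the platform annotation (9604 with 1 symbol, 213 with several, 6311 with none). A probe was tested if 15 or more arrays, among them 1 or more of each group, gave a value. Probes of 1 symbol were averaged, then the median over features was subtracted from every array. A fit of 9 group means used limma 3.58.1 in R 4.3.3 (lmFit, eBayes, prior degrees of freedom 5.55), with two-sided p values adjusted by Benjamini-Hochberg over all 5751 features and a threshold of 0.05. The code was tested on simulated data. For constant hypoxia minus normoxia it recovered 83 of 100 simulated log2 changes of 1 and 97 of 100 of 2. For intermittent hypoxia minus normoxia at 2 weeks it recovered 28 of 100 and 85 of 100. A comparison at 1 duration can thus miss a real difference. Animals differ between the 2 arrays of a group per the labels, and p values measure the spread between arrays.

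All 10 members are named. A relative is named if it passed, or had the highest or lowest difference of its list from normoxia, and examples of those are printed. The members and lists were chosen with earlier results of these data known. Alternatives were the values as deposited, equal spread, removal of a running median over 300 probe numbers, looser and stricter filters, single probes, other eBayes options, compared groups only, the array letter as a block, leaving out arrays and, chosen after seeing the data, subtraction of neighbouring probes (5 on either side, at least 3 with a value). The letters A and B do not pair arrays: over 36 pairs of groups the correlation of deviations ran from -0.37 to 0.44, above 0.1 in 8.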

Additional observations from a re-analysis of the deposited data

Results flagged for a closer look

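Among the 30 sets of 6 or 5 arrays (10 genes in 3 conditions) examined for 1 value far from the rest, 2 held one, and chance alone gives about 1 in 20. Both lay on intermittent hypoxia 2 weeks B, the array with the largest median absolute ratio. There Bnip3 had a centred log2 ratio of -1.29, against -0.23 to 0.07 on the other intermittent hypoxia arrays. Ndrg1 had -0.97, against -0.15 to 0.10 on the others. The 10 probes around Bnip3 had a median of -1.01 on that array, while fewer than 3 of those around Ndrg1 had a value there. The part of that array's spread in these values was not tested.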

How the results depend on the processing

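On the values as deposited, without centring, the number of members passing was 10 for the ratio in constant hypoxia, 8 for constant hypoxia minus normoxia, 9 for intermittent minus constant hypoxia, and 7 at 1 week and 10 at 4 weeks for constant hypoxia minus normoxia. Under that setting the ratio in constant hypoxia turned to -0.54 for Adm, -0.49 for Bnip3l, -0.62 for Egln1, -0.64 for Kdm3a, -0.51 for Mif, -0.59 for Ndrg1, -0.56 for Pdk1 and -0.71 for Pfkfb3. Constant hypoxia minus normoxia turned to -0.66 for Adm and Bnip3, -0.69 for Bnip3l and Ddt, -0.74 for Kdm3a, -0.47 for Ndrg1, -0.50 for Gabarapl2, -0.68 for Arnt, -0.54 for Igf2r, -0.71 for Jmjd1c, -0.59 for Kdm5b, -0.57 for Cops5, -0.45 for Pgk1 and -0.35 for Pdhb. Pdk1 and Mif turned negative in that comparison as well, but did not pass. Intermittent minus constant hypoxia turned to 0.50 for Bnip3, 0.69 for Bnip3l, 0.64 for Egln1 and 0.67 for Kdm3a. Ndrg1 turned positive there without passing. The values listed for this setting are those that passed after turning. The cause of the deposited shift of constant hypoxia, which was larger at 1 and 4 weeks than at 2 weeks, was not tested.

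Members passing for the ratio in constant hypoxia numbered 0 with the probe-number trend removed, with the compared groups only, without the arrays whose labels disagree and with neighbouring probe numbers subtracted, and 0 to 2 on leaving out 1 array (Igfbp3 and Bnip3l without intermittent hypoxia 2 weeks A or B). Without the arrays whose labels disagree 3 passed for the ratio in intermittent hypoxia (0 to 3 on leaving out 1 array), 1, Igfbp3, for the ratio in normoxia (0 to 1, with Igfbp3 passing without normoxia 4 weeks A) and 3 for intermittent hypoxia minus normoxia at 2 weeks (0 to 3). In that last comparison 1, Pdk1, passed with the trend removed, with eBayes trend and robust options and with neighbours subtracted. The 3 were Bnip3, Bnip3l and Pdk1, called where intermittent hypoxia 2 weeks B was the only array of its group, assumed to vary like the others. With the array letter as a replicate block 1 member passed for the ratio in constant hypoxia and 0 in every other comparison, so the block changed no call. Both animals of an array were kept in the same condition, so equal responses of both cannot be seen. Each group had 2 arrays, and the direction of the ratio is unknown.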
